A study of Homo sapiens with 24 samples.

Results

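The genes described here are 38 genes of nucleolar ribosome biogenesis, a list fixed by name and not by a measured value. Of these, 37 had a row in the gene table (RRN3 was not analysed here), out of 38048 gene rows in all, and all 37 were among the 16640 genes with enough reads to test. Their levels come from RNA sequencing of MV4-11, an established line of human acute myeloid leukaemia cells with an MLL gene fusion and an internal tandem duplication in FLT3. The study asked why blocking PRMT5 and LSD1 together is more toxic to these cells than either block alone. PRMT5 is a protein arginine methyltransferase and LSD1 a histone demethylase. Cells received 3 nM PRT220, a PRMT5 inhibitor, together with 10 nM GSK-LSD1, an LSD1 inhibitor, or PRT220 alone at 3 nM, or GSK-LSD1 alone at 10 nM, or the solvent DMSO, each for 3 days. The remaining groups received MS023, which blocks type I arginine methyltransferases, with GSK-LSD1 or alone, or a compound known only by its code, MC4455 or MC4491. Doses and times of these last groups are not given in the sources used here. Each of the 8 groups had 3 libraries, A, B and C, and all groups are of the same cell line, with wild-type PRMT5 (labelled PRMT5 +/+). The labels do not say whether the libraries came from separate cultures, so p-values speak of the spread among these libraries alone, and that spread may be technical.

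Ribosomes are assembled in the nucleolus. RNA polymerase I transcribes the ribosomal DNA into a long precursor, small nucleolar ribonucleoproteins (snoRNPs) mark its nucleotides for methylation or pseudouridylation, and large complexes then fold and cut it into the RNAs of the small (40S) and large (60S) subunits. Proliferating cells, leukaemia cells among them, keep this machinery highly expressed, and the transcription factor MYC is a well-known activator of many of its genes. The gene for NPM1, one of its most abundant proteins, is among the genes most often mutated in acute myeloid leukaemia.

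Depth ran from 32495446 to 61090593 estimated counts per library. The 8 myeloid markers examined (CD33, SPI1, CEBPA, MPO, FLT3, CSF1R, LYZ and PTPRC) had reads in every library, MPO being the lowest at 5.9 to 11.5 CPM (counts scaled to library size). Of 22 markers of lymphocytes, of erythroid cells and megakaryocytes, and of epithelial, fibroblast and endothelial cells, CD2, MS4A1 and PF4 were at 0 in all 24 libraries, while NKG7 (17.8 to 24.3 CPM), ITGA2B (18.2 to 34.5 CPM), KRT18 (7.85 to 13.7 CPM) and PECAM1 (122 to 185 CPM) had reads in every library and 15 others did not exceed 2.72 CPM. The summed level of the 8 myeloid markers was 3210 to 3360 CPM with PRT220 + GSK-LSD1, 3100 to 3340 CPM with MS023 + GSK-LSD1, 3550 to 3680 CPM with GSK-LSD1, 2550 to 2580 CPM with MC4455, 2470 to 2560 CPM with MC4491, 2510 to 2560 CPM with PRT220 and 2280 to 2370 CPM with MS023, against 2320 to 2340 CPM with DMSO. The 6 erythroid and megakaryocyte markers summed to 34.2 to 34.9 CPM with MC4455, 29.4 to 34.8 with MC4491, 29.3 to 30.8 with PRT220 + GSK-LSD1, 26.7 to 28.9 with MS023 + GSK-LSD1, 23.2 to 26.9 with MS023, 22.6 to 25.5 with PRT220 and 22.4 to 24.4 with GSK-LSD1, against 18.5 to 22.5 with DMSO. The summed level of the 8 lymphocyte markers in each treatment overlapped with DMSO (21.7 to 28.0 CPM). The 8 epithelial, fibroblast and endothelial markers summed to 182 to 194 CPM with MC4455 and 185 to 197 CPM with MC4491, against 156 to 177 CPM with DMSO. With MS023 that sum was lower than in DMSO, at 131 to 145 CPM, and in the remaining treatments it overlapped with DMSO. These sums rest largely on single genes, so they do not show that a whole marker set rose or fell. LYZ had the widest range of the 8 myeloid markers, 891 to 2480 CPM. ITGA2B made up most of the erythroid and megakaryocyte sum, and PECAM1 most of the epithelial, fibroblast and endothelial sum. The part of these markers in the results below was not tested. A set of 8 libraries stood apart: RRP9, a U3 snoRNP protein gene that is not on the list, was at 0.677 to 1.73 unscaled CPM in them and at 29.1 to 36.2 CPM in the other 16. They were all 3 PRT220 libraries, library C of PRT220 + GSK-LSD1, A and C of MS023, B of MS023 + GSK-LSD1 and C of DMSO. With the groups accounted for, 3 of the 37 genes differed between these 8 libraries and the rest (edgeR, adjusted p below 0.05), 2 lower and 1 higher, where 3.2% of all genes tested were lower and 0.98% higher: NOP2 by -0.72 ± 0.0842 on the log2 scale (SE; adjusted p = 7.28e-06), UBTF by -0.15 (adjusted p = 0.0117) and NOB1 by 0.13 (adjusted p = 0.0346). The other 34 genes did not pass this test.

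In 5 of the 7 treatments, many of the 37 genes were lower than in DMSO and none was higher. A gene is called higher or lower where the quasi-likelihood test of edgeR gave it a p below 0.05 after Benjamini-Hochberg adjustment over all 16640 genes, and background stands for the share of all these genes called the same way. PRT220 + GSK-LSD1 lowered 26 of the 37, or 70.3%, where 22.1% of all genes tested were lower. MS023 + GSK-LSD1 lowered 26 as well, or 70.3%, where 23.3% of all genes were lower. GSK-LSD1 alone lowered 15, or 40.5%, with a background of 15.0%. The GSK-LSD1 count was 8 without DMSO A and 25 without DMSO B, and 23 with DESeq2 or with any of 3 other scalings in edgeR. The share of all genes called lower in these fits was not counted, so these counts have no background. MC4455 lowered 27, or 73.0% (background 19.2%), and MC4491 lowered 25, or 67.6% (background 15.2%). PRT220 alone lowered 3 of the 37, or 8.11%, a share below the 11.1% of all genes that it lowered, and MS023 alone lowered 0, with a background of 1.36%. The falls were modest: the median log2 fold change of the 37 genes was -0.21 with PRT220 + GSK-LSD1, -0.22 with MS023 + GSK-LSD1, -0.16 with GSK-LSD1, -0.23 with MC4455, -0.22 with MC4491, -0.04 with PRT220 and 0.01 with MS023, while the median over all genes lay between 0 and 0.04. All 7 comparisons share the 3 DMSO libraries, so a low or high value there enters each of them. Among the 16 libraries that did not stand apart, DMSO and each combination have 2. The counts within these 16 were 25 with PRT220 + GSK-LSD1 (background in that fit 18.6%), 26 with MS023 + GSK-LSD1 (21.1%), 13 with GSK-LSD1 (12.8%), 27 with MC4455 (16.4%) and 22 with MC4491 (12.7%). Within the 8 that stood apart, DMSO and each combination have 1 library. The spread there comes from PRT220 and MS023 libraries, and the lone libraries are assumed to vary like them. That fit called 9 genes lower with PRT220 + GSK-LSD1 (11.7%) and 9 with MS023 + GSK-LSD1 (8.98%), which compares single libraries. With a term for the 8 libraries in the fit of all 24, the calls lost were LAS1L with GSK-LSD1 (adjusted p = 0.0604), NOB1 and NIP7 with MC4455 (0.0604 and 0.0529) and PES1 with MC4491 (0.0571). Genes whose 3 treated libraries all lay below all 3 DMSO libraries numbered 26 of 37 with PRT220 + GSK-LSD1 (24.7% of all genes), 24 with MS023 + GSK-LSD1 (24.7%), 21 with GSK-LSD1 (20.4%), 29 with MC4455 (22.7%), 23 with MC4491 (18.7%), 6 with PRT220 (16.7%) and 0 with MS023 (9.02%).

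**Figure D1:**
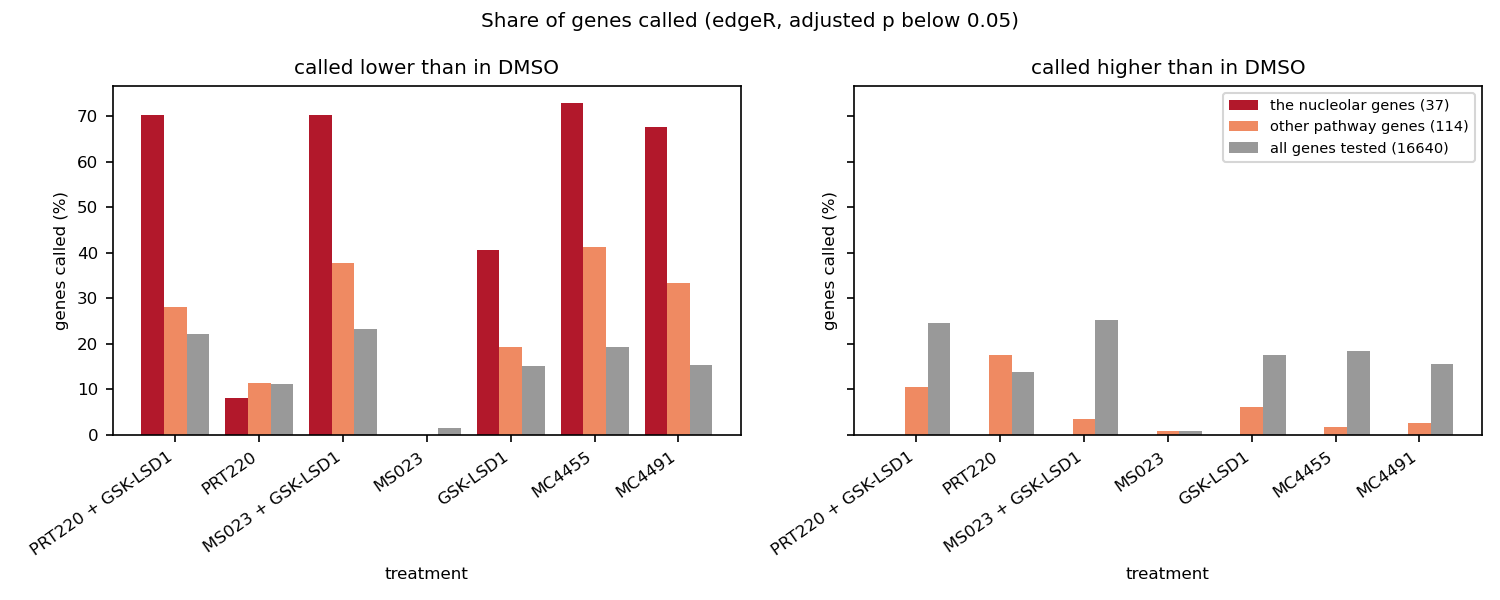
Percent of genes called lower (left) or higher (right) than DMSO in each treatment, for the 37 nucleolar genes, 114 other ribosome biogenesis genes and all 16640 genes tested. The bars of the nucleolar genes stand between 40.5% and 73.0% lower in 5 treatments, at 8.11% with PRT220 and at 0 with MS023, and no bar of theirs appears among the genes called higher.

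The count of 0 genes called higher in each treatment came from edgeR, and DESeq2 also called 0 in each of the 7. Among all genes edgeR called 24.4% higher with PRT220 + GSK-LSD1, 25.1% with MS023 + GSK-LSD1, 17.6% with GSK-LSD1, 18.5% with MC4455, 15.5% with MC4491, 13.8% with PRT220 and 0.889% with MS023. For MS023 the count of 0 genes called lower was also 0 with DESeq2 and at an unadjusted p below 0.05. At an unadjusted p below 0.05, the genes higher were NOB1 and PES1 with PRT220, UBTF with GSK-LSD1, NOP2 and UBTF with PRT220 + GSK-LSD1, NAT10 with MS023, and 0 genes in the other 3 treatments. Here and below, no share of all genes was counted for DESeq2 or for an unadjusted p. With a term for the 8 low-RRP9 libraries, NOP2 was called higher with PRT220 (background 12.4%), NOP2 and UBTF with PRT220 + GSK-LSD1 (26.2%), and UBTF with MS023 + GSK-LSD1 (26.7%). These levels are relative to all polyadenylated RNA of a library, so fewer cells that express a gene and less of its RNA per cell cannot be told apart, nor can a change of total RNA per cell be seen.

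Counting each gene over the 5 treatments in which many fell, 11 of the 37 were called lower in all 5: NCL, LYAR, NOP56, DKC1, GAR1, UTP4, TSR1, WDR12, NOP16, BRIX1 and LAS1L. Of all genes tested, 5.26% were called lower in all 5, which share their DMSO libraries. A further 9 were called lower in 4 of the 5, among them NPM1, FBL, DDX21 and BOP1. At the other end, POLR1A, UBTF, UTP15, DDX10 and NOP2 were called lower in none of the 7 treatments, and HEATR1, UTP20 and NOB1 in 1 each. The shares of all genes called lower in 4 of the 5, or in none or 1 of the 7, were not counted.

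**Figure D2:**
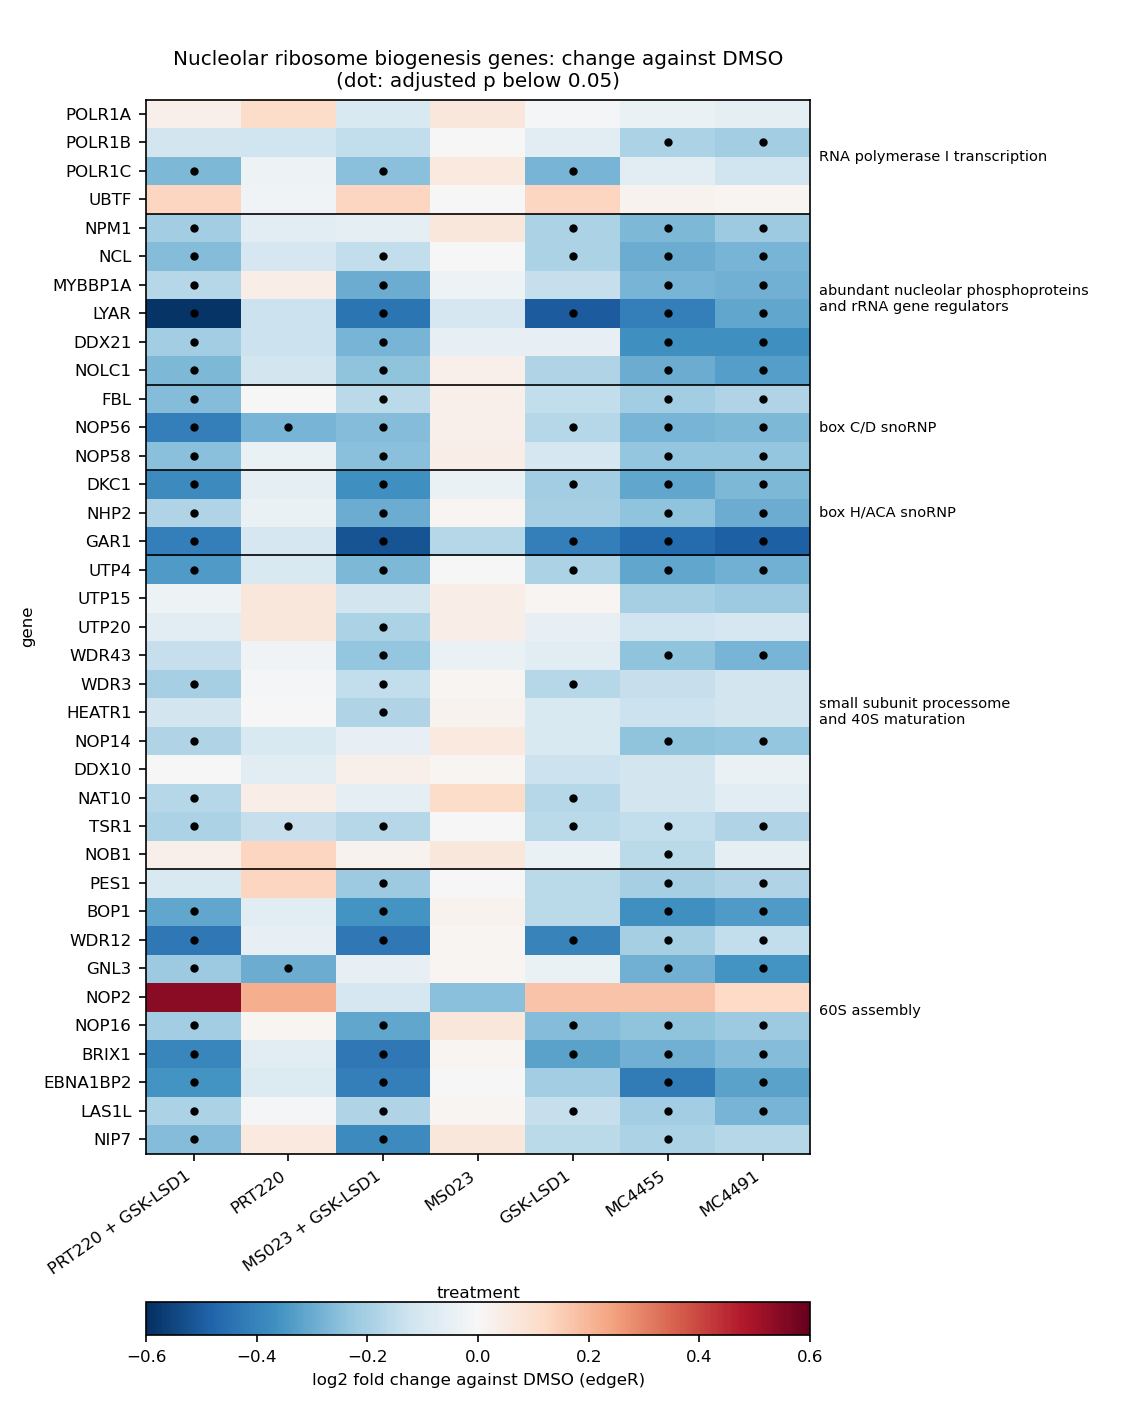
log2 fold change against DMSO of each of the 37 genes (rows, grouped by role) in 7 treatments (columns), blue for lower and red for higher, with a dot where the adjusted p was below 0.05. The PRT220 column has 3 dots and the MS023 column none, while the other 5 columns carry 15 to 27, and the NOP2 row is the only one with a positive change above 0.5.

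On a scale of counts per kilobase of transcript, made to sum to the same total in each library, the genes spanned more than an order of magnitude. NPM1 was the most abundant, with a median level of 1380 and a range of 1230 to 1660 over the 24 libraries, followed by NCL with a median of 902 (784 to 1040) and FBL with a median of 560 (509 to 650), and the ranges of these 3 did not overlap. NOP56 (163 to 254) and DDX21 (162 to 245) came next and overlapped each other, NOP56 being counted over its paired transcripts alone. LYAR with a median of 24.9 (18.8 to 33.6) and UTP20 with 22.5 (18.0 to 25.4) were the lowest and overlapped too. NPM1 has many processed pseudogenes, so its level depends on how reads shared with them were assigned.

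Of the 4 RNA polymerase I genes, 1 was called lower in each of the 5 treatments, POLR1C with the 3 GSK-LSD1 groups and POLR1B with the coded compounds. That share, 25.0%, is near the backgrounds of 15.0% to 23.3%. POLR1A encodes the largest subunit of the enzyme, and POLR1B the second largest. POLR1A was not called against DMSO in any treatment, with 202, 200 and 207 CPM in PRT220 + GSK-LSD1 libraries against 216, 191 and 192 CPM in DMSO libraries, and it was called lower in 1 other comparison, MS023 + GSK-LSD1 against MS023 (log2 fold change -0.15, adjusted p = 0.0363). POLR1B was called lower with MC4455 (log2 fold change -0.19, adjusted p = 0.024) and MC4491 (-0.21, adjusted p = 0.0174), and not in the other 5 treatments. POLR1C encodes a subunit shared by RNA polymerases I and III, and it showed the reverse pattern: it fell in the 3 groups with GSK-LSD1. It had 21.7, 22.2 and 21.1 CPM with PRT220 + GSK-LSD1, 22.3, 22.7 and 20.8 CPM with MS023 + GSK-LSD1 and 20.8, 21.5 and 22.3 CPM with GSK-LSD1, against 27.5, 25.0 and 25.8 CPM with DMSO. These groups did not overlap with DMSO, and the log2 fold changes were -0.27, -0.25 and -0.28 (adjusted p = 0.000337, 0.000656 and 0.000373). With MC4455 and MC4491 POLR1C changed by -0.07 and -0.12 (adjusted p = 0.313 and 0.0964). UBTF, which encodes the upstream binding factor that opens the ribosomal DNA, had positive log2 fold changes of 0.13 in each of the 3 GSK-LSD1 groups, none of them called (adjusted p = 0.0928 with PRT220 + GSK-LSD1, 0.105 with MS023 + GSK-LSD1 and 0.115 with GSK-LSD1). Whether POLR1C responded differently from POLR1B was not tested.

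All 6 genes of abundant nucleolar proteins and rRNA gene regulators were called lower with PRT220 + GSK-LSD1 (background 22.1%), MC4455 (19.2%) and MC4491 (15.2%). With MS023 + GSK-LSD1 5 of them were called lower (23.3%), and with GSK-LSD1 NPM1, NCL and LYAR (15.0%). NPM1, a histone chaperone and shuttling nucleolar phosphoprotein (GRCh38 chromosome 5, 171387116 to 171411137, plus strand), had 712, 766 and 781 CPM with PRT220 + GSK-LSD1, 755, 781 and 755 CPM with GSK-LSD1, 757, 686 and 726 CPM with MC4455 and 683, 791 and 771 CPM with MC4491, against 846, 859 and 908 CPM with DMSO. Every library of these 4 groups lay below every DMSO library. The falls were 13.5%, 12.3%, 17.0% and 14.1% in that order of treatments, with log2 fold changes of -0.21 ± 0.0618, -0.19 ± 0.0618, -0.27 ± 0.0618 and -0.22 ± 0.0618 (SE) and adjusted p of 0.00834, 0.0219, 0.00217 and 0.0113. The call for PRT220 + GSK-LSD1 was lost without its library A (adjusted p = 0.0513), that for GSK-LSD1 without its library C or DMSO C (0.0656 and 0.0532) and within the 16 libraries that did not stand apart (0.0747), and that for MC4491 without its library A (0.0611). In the remaining groups NPM1 was not called: it had 888, 800 and 800 CPM with PRT220, 862, 863 and 785 CPM with MS023 + GSK-LSD1 and 891, 858 and 989 CPM with MS023, all of which overlap with DMSO. NPM1 was the gene of this class that did not pass with MS023 + GSK-LSD1 (log2 fold change -0.06).

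NCL encodes nucleolin, which binds the ribosomal DNA and its precursor RNA, and lies on GRCh38 chromosome 2 at 231453531 to 231483641 on the minus strand. It had 580, 629 and 653 CPM with PRT220 + GSK-LSD1, 655, 654 and 636 CPM with GSK-LSD1, 642, 558 and 609 CPM with MC4455, and 548, 635 and 654 CPM with MC4491, against 781, 707 and 736 CPM with DMSO. These groups did not overlap with DMSO, and the log2 fold changes were -0.26, -0.19, -0.30 and -0.28 (adjusted p = 0.00138, 0.0158, 0.000708 and 0.00198). The GSK-LSD1 call was lost without its library C or DMSO A (adjusted p = 0.058 and 0.0841), and within the 16 libraries that did not stand apart (-0.20, adjusted p = 0.0651). With MS023 + GSK-LSD1 NCL had 693, 667 and 646 CPM and a log2 fold change of -0.15 that barely passed (adjusted p = 0.0446), and the call was lost when DMSO A, DMSO C, MS023 + GSK-LSD1 B or MS023 + GSK-LSD1 C was left out (adjusted p = 0.182, 0.0633, 0.0785 and 0.152). It was also lost with upper quartile scaling (0.0523) and within the 16 libraries that did not stand apart (0.154). With PRT220 it had 715, 670 and 687 CPM and with MS023 755, 741 and 733 CPM, and neither was called.

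LYAR, a cell growth regulator that associates with the ribosomal DNA and pre-ribosomes, showed the largest fall of the 37 genes in PRT220 + GSK-LSD1 and in GSK-LSD1. It had 12.5, 15.2 and 14.6 CPM with PRT220 + GSK-LSD1, 16.2, 16.2 and 14.4 CPM with MS023 + GSK-LSD1 and 14.4, 16.1 and 14.5 CPM with GSK-LSD1, against 23, 20.6 and 20.3 CPM with DMSO. The falls were 33.6%, 26.5% and 29.4%, with log2 fold changes of -0.59 ± 0.0938, -0.44 ± 0.0936 and -0.50 ± 0.0934 (SE) and adjusted p of 2.58e-05, 0.000572 and 0.000246. With MC4455 it had 17.6, 14.8 and 15.7 CPM (log2 fold change -0.41, adjusted p = 0.00217) and with MC4491 14.6, 17.3 and 19.6 CPM, all below the DMSO libraries. With PRT220 it had 18.8, 19.5 and 19.9 CPM and with MS023 20.5, 19.8 and 19.1 CPM, and neither was called. DDX21, an RNA helicase that coordinates polymerase I transcription with RNA processing, moved most with the coded compounds. It had 384, 324 and 371 CPM with MC4455 and 327, 339 and 415 CPM with MC4491, against 512, 449 and 434 CPM with DMSO, with log2 fold changes of -0.37 in both (adjusted p = 0.00134 and 0.00206). With GSK-LSD1 alone DDX21 changed by -0.05 (adjusted p = 0.649). MYBBP1A, a repressor of ribosomal RNA genes, and NOLC1, a chaperone that carries snoRNPs, were called lower in the same 4 treatments as DDX21, namely both combinations and both coded compounds, with log2 fold changes between -0.33 and -0.17.

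**Figure D3:**
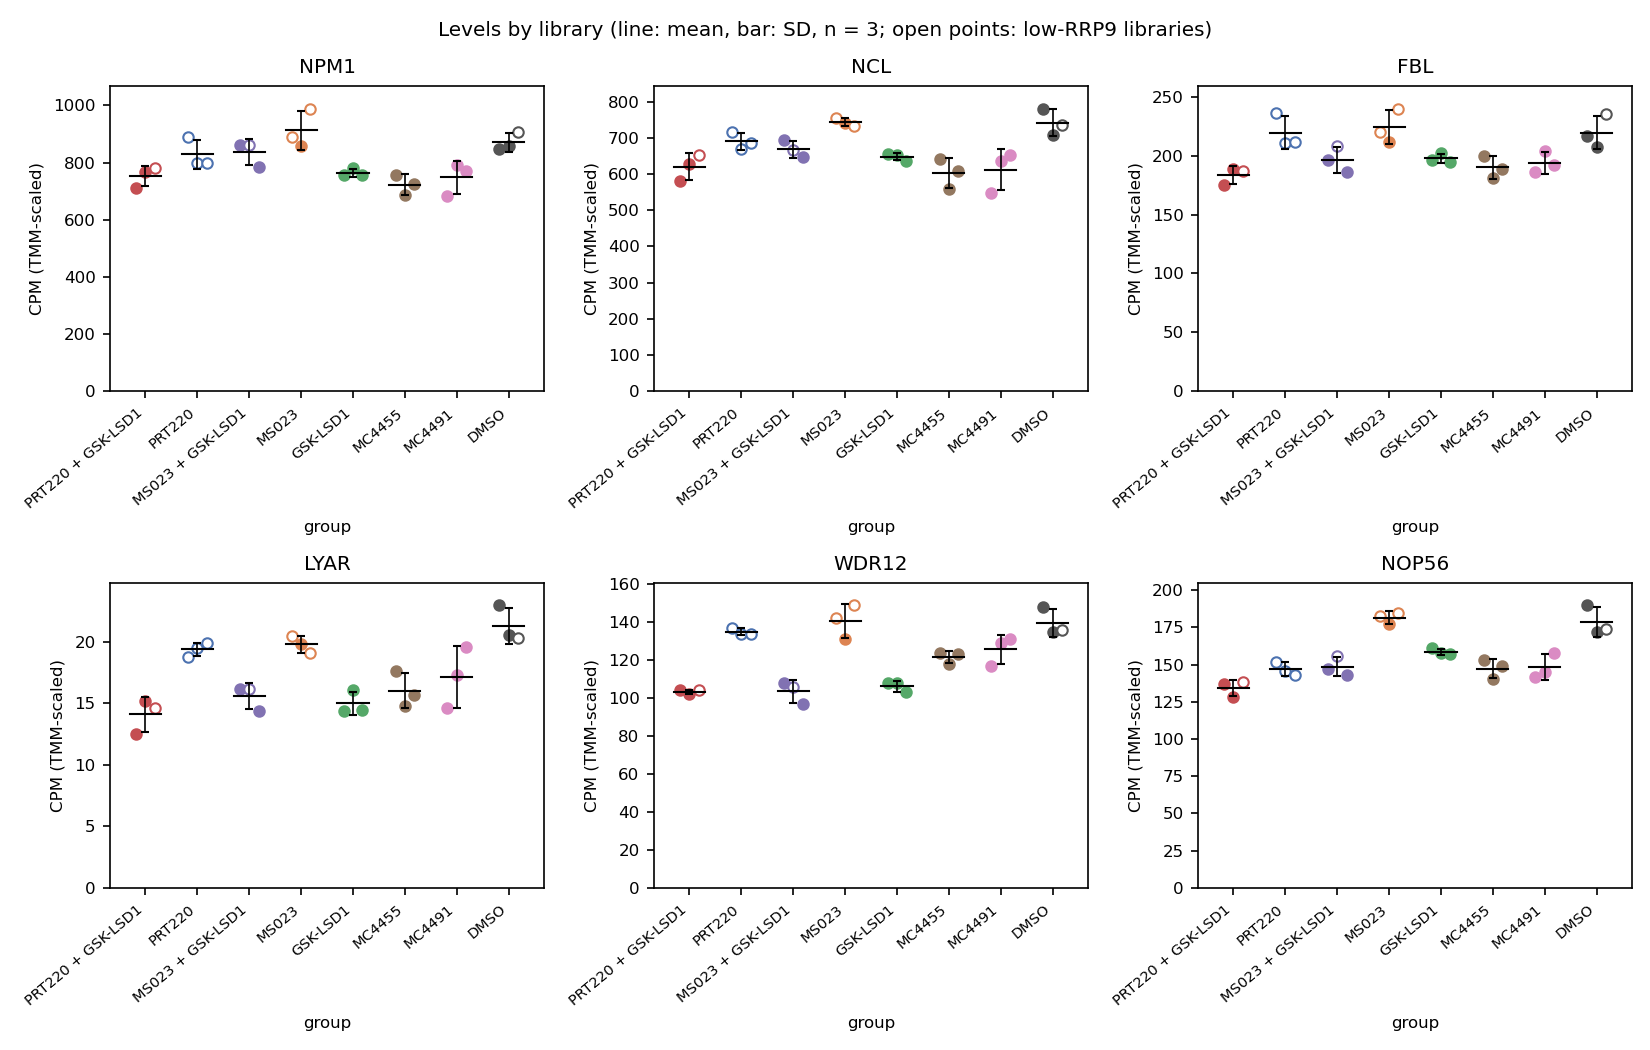
Level in CPM (TMM-scaled, vertical axis from 0) of 6 genes in each of the 24 libraries, by group, with the mean and SD of 3 libraries; open points are the 8 low-RRP9 libraries. In all 6 panels the PRT220 + GSK-LSD1 libraries lie below all DMSO libraries, and the MS023 libraries overlap with DMSO.

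The 3 box C/D snoRNP genes encode proteins of the complex that carries out the 2'-O-methylation of ribosomal RNA. All 3 were called lower in 4 treatments: PRT220 + GSK-LSD1 (background 22.1%), MS023 + GSK-LSD1 (23.3%), MC4455 (19.2%) and MC4491 (15.2%). FBL encodes fibrillarin, the methyltransferase of the complex (GRCh38 chromosome 19, 39834458 to 39846414, minus strand). It had 175, 189 and 187 CPM with PRT220 + GSK-LSD1, 200, 181 and 189 CPM with MC4455 and 186, 204 and 192 CPM with MC4491, against 217, 207 and 235 CPM with DMSO, and no library of these groups reached the lowest DMSO library. The log2 fold changes were -0.26, -0.21 and -0.18 (adjusted p = 0.0011, 0.00846 and 0.0257). With MS023 + GSK-LSD1 FBL had 196, 208 and 186 CPM, which overlapped with DMSO (log2 fold change -0.16, adjusted p = 0.0295). The FBL calls for MS023 + GSK-LSD1 and MC4491 were lost without DMSO C (adjusted p = 0.158 and 0.111), for MS023 + GSK-LSD1 also without its library A or C (0.068 and 0.146), and for MC4491 also without its library A or C (0.0846 and 0.0623) or within the 16 libraries that did not stand apart (0.083). With GSK-LSD1 alone it had 196, 202 and 195 CPM, with PRT220 236, 211 and 212 CPM and with MS023 220, 212 and 240 CPM, none of them called.

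NOP56, a core protein of the same complex, was called lower in 6 of the 7 treatments. It had 137, 128 and 138 CPM with PRT220 + GSK-LSD1, 152, 146 and 143 CPM with PRT220 and 161, 158 and 157 CPM with GSK-LSD1, against 190, 172 and 174 CPM with DMSO. The order of these 4 groups was the same in every library, since none of the groups overlapped with another. The falls were 24.6%, 17.6% and 10.9%, with log2 fold changes of -0.41 ± 0.0474, -0.28 ± 0.0473 and -0.17 ± 0.0472 (SE) and adjusted p of 4.73e-07, 0.000164 and 0.00919, the last of which became 0.072 without DMSO A. NOP56 had 147, 156 and 143 CPM with MS023 + GSK-LSD1, 153, 140 and 149 CPM with MC4455 and 142, 145 and 158 CPM with MC4491 (log2 fold changes -0.26, -0.28 and -0.27). Part of its reads belong to transcripts that keep introns, several of which hold snoRNA genes. The transcripts that could be paired with NOP56 held 69.3% to 90.5% of its gene count, unlike the other 36 genes, so its values by transcript rest on a smaller total. Leaving such transcripts out of the counts, an alternative chosen after seeing the data, kept the NOP56 calls for PRT220 + GSK-LSD1 (-0.43, adjusted p = 0.00022), PRT220 (-0.37, adjusted p = 0.00264) and GSK-LSD1 (-0.28, adjusted p = 0.0144) and ended the one for MS023 + GSK-LSD1 (-0.10, adjusted p = 0.328), all on that smaller total. NOP58, the partner of NOP56, was called lower with both combinations (-0.25 each) and both coded compounds (-0.23 each).

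The box H/ACA genes, whose complex converts uridines of ribosomal RNA to pseudouridine and also binds telomerase RNA, held some of the larger falls. All 3 were called lower with PRT220 + GSK-LSD1 (background 22.1%), MS023 + GSK-LSD1 (23.3%), MC4455 (19.2%) and MC4491 (15.2%), and 2 with GSK-LSD1 (15.0%). GAR1 had 14.9, 18.4 and 17.5 CPM with PRT220 + GSK-LSD1, 16.3, 16.6 and 14.2 CPM with MS023 + GSK-LSD1 and 16.9, 17.4 and 16.3 CPM with GSK-LSD1, against 23.6, 20.5 and 23.5 CPM with DMSO. It had 18.3, 16 and 14.7 CPM with MC4455 and 15.2, 16.2 and 16.5 CPM with MC4491, and no library of these 5 groups reached the lowest DMSO library. The falls were 24.8%, 30.2%, 24.9% and 27.5% in the first 4 of these groups, and GAR1 was the gene with the largest fall of the 37 with MS023 + GSK-LSD1 (log2 fold change -0.52, adjusted p = 3.87e-05), MC4455 (-0.46, adjusted p = 0.000294) and MC4491 (-0.49, adjusted p = 0.000284). With PRT220 it had 21.7, 21.3 and 20.1 CPM and with MS023 20.1, 19.1 and 20.8 CPM, and neither was called. DKC1, which encodes the pseudouridine synthase dyskerin, was called lower in the same 5 treatments as GAR1, by -0.38 with PRT220 + GSK-LSD1 (adjusted p = 2.54e-05) and -0.37 with MS023 + GSK-LSD1 (adjusted p = 3.23e-05). NHP2 was called lower in 4 of them and reached an adjusted p of 0.0501 with GSK-LSD1 (log2 fold change -0.20).

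Of the 11 small subunit genes, between 4 and 6, or 36.4% to 54.5%, fell in each of the 5 treatments, with backgrounds of 15.0% to 23.3%. With PRT220 + GSK-LSD1 5 of the 11 were called lower, with MS023 + GSK-LSD1 6, with GSK-LSD1 4, with MC4455 5 and with MC4491 4. UTP4, a protein of the processome that cuts the precursor towards 18S RNA, had 47.9, 47.8 and 50.8 CPM with PRT220 + GSK-LSD1 and 50.1, 49.4 and 50.1 CPM with MC4455, against 66.2, 60.0 and 58.8 CPM with DMSO. These are log2 fold changes of -0.34 (adjusted p = 7.21e-05) and -0.31 (adjusted p = 0.000478), with no overlap. TSR1, a maturation factor of the 40S particle, was called lower in 6 treatments, PRT220 among them, but by little: it had 144, 133 and 133 CPM with PRT220 against 156, 147 and 147 CPM with DMSO (log2 fold change -0.14, adjusted p = 0.0324). That PRT220 call was lost without DMSO A (adjusted p = 0.137), PRT220 B (0.0869) or PRT220 C (0.0996). UTP20 and HEATR1, large scaffold proteins of the processome, were called lower with MS023 + GSK-LSD1 only (-0.19 and -0.18, adjusted p = 0.0149 and 0.00764), and NAT10, the acetyltransferase of 18S RNA, with PRT220 + GSK-LSD1 and GSK-LSD1 (-0.17 in both). Whether these responses differ from those in the other treatments was not tested.

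Of the 10 genes of 60S assembly, 8 were called lower with PRT220 + GSK-LSD1 (background 22.1%), 8 with MS023 + GSK-LSD1 (23.3%), 4 with GSK-LSD1 (15.0%), 9 with MC4455 (19.2%) and 8 with MC4491 (15.2%). WDR12, BOP1 and PES1 encode the 3 proteins of the PeBoW complex, which is needed for the maturation of 28S and 5.8S RNA. WDR12 (GRCh38 chromosome 2, 202874782 to 203014798, minus strand) had 104, 102 and 104 CPM with PRT220 + GSK-LSD1, 108, 106 and 96.8 CPM with MS023 + GSK-LSD1 and 108, 108 and 103 CPM with GSK-LSD1, against 148, 135 and 136 CPM with DMSO. The falls were 26.0%, 25.9% and 24.1%, and the log2 fold changes of PRT220 + GSK-LSD1 and GSK-LSD1 were -0.43 ± 0.0501 and -0.40 ± 0.05 (SE; adjusted p = 4.4e-07 and 2.27e-06). The 3 GSK-LSD1 groups lay well below the PRT220 libraries (137, 134 and 134 CPM) and the MS023 libraries (142, 131 and 149 CPM). WDR12 fell by 12.8% with MC4455 (124, 118 and 123 CPM) and by 9.89% with MC4491 (117, 129 and 131 CPM). BOP1 was called lower in 4 treatments, by -0.31 with PRT220 + GSK-LSD1 (adjusted p = 0.00287) and -0.37 with MC4455 (adjusted p = 0.00121), and PES1 in 3, without PRT220 + GSK-LSD1 (-0.09, adjusted p = 0.224).

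BRIX1, a factor of 60S assembly, had 34.2, 38.4 and 39.0 CPM with PRT220 + GSK-LSD1 and 39.2, 35.1 and 34.1 CPM with MS023 + GSK-LSD1. With GSK-LSD1 it had 39.2, 40.2 and 37.7 CPM, against 50.0, 47.6 and 48.4 CPM with DMSO. The falls were 23.6%, 25.7% and 19.7% in that order, with no overlap. EBNA1BP2, a 60S assembly factor, had 37.2, 33.9 and 35.3 CPM with MC4455 against 48.1, 44.2 and 49.9 CPM with DMSO, a fall of 25.2% (log2 fold change -0.42 ± 0.0832, SE; adjusted p = 0.000675). NIP7, a factor for the processing of precursor RNA, had 46.6, 45.1 and 42.1 CPM with MS023 + GSK-LSD1 against 62, 55.6 and 56.7 CPM with DMSO (log2 fold change -0.38, adjusted p = 0.000124). GNL3 encodes nucleostemin, a GTPase of the nucleolus, and it followed another order: it was lower with PRT220 (102, 95.3 and 93.2 CPM), MC4455 (104, 92.3 and 96.3 CPM) and MC4491 (87.0, 93.1 and 98.3 CPM), against 124, 115 and 118 CPM with DMSO. The falls were 18.6%, 18.1% and 21.9%, with adjusted p of 0.000495, 0.0006 and 0.000149, and PRT220 + GSK-LSD1 libraries (93.1, 106 and 108 CPM) were lower as well (log2 fold change -0.22, adjusted p = 0.00329). GNL3 was not called with GSK-LSD1 (118, 118 and 110 CPM), MS023 + GSK-LSD1 (118, 115 and 111 CPM) or MS023 (123, 118 and 119 CPM).

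Adding an inhibitor to a single agent was compared directly. PRT220 + GSK-LSD1 against PRT220 lowered 20 of the 37 genes (54.1%, background 18.8%), with a median change of -0.16 (log2), and among the largest falls were LYAR (-0.46, adjusted p = 0.000628), WDR12 (-0.38, adjusted p = 3.75e-06) and BRIX1 (-0.32, adjusted p = 0.000908). BRIX1 had 48.5, 45.4 and 45.4 CPM with PRT220, all above its PRT220 + GSK-LSD1 libraries. The higher calls numbered 0 (background 19.4%), with UBTF at an unadjusted p below 0.05 and 0 by DESeq2. With a term for the 8 low-RRP9 libraries the lower count was 14 (background 14.8%), all of them among the 20. The calls lost were those of NCL (adjusted p = 0.132), NOP56 (0.147), WDR3 (0.0788), PES1 (0.0602), BOP1 (0.147) and EBNA1BP2 (0.0721). MS023 + GSK-LSD1 against MS023 lowered 28 (75.7%, background 20.0%), with a median of -0.22, led by WDR12 (-0.45, adjusted p = 4.4e-07), NIP7 (-0.45, adjusted p = 2.52e-05) and BRIX1 (-0.44, adjusted p = 2.84e-05). In MS023 libraries NIP7 had 59.5, 58.0 and 64.8 CPM and BRIX1 50.2, 46.7 and 50.3 CPM, above every MS023 + GSK-LSD1 library. No gene was higher, by edgeR, by DESeq2 or at an unadjusted p below 0.05 (background 20.0%). The term ended 1 call in MS023 + GSK-LSD1 against MS023, that of NCL (adjusted p = 0.0715). Within the 16 libraries that did not stand apart, where MS023 has 1 library, MS023 + GSK-LSD1 against MS023 lowered 10 genes (background 9.98%). Within the 8 that did, where each combination has 1 library, that comparison lowered 17 (10.8%) and PRT220 + GSK-LSD1 against PRT220 lowered 8 (9.76%). In each of these fits the spread of the single library is taken from the remaining groups. In the other direction the counts were small. PRT220 + GSK-LSD1 against GSK-LSD1 lowered 2 genes (5.41%, background 8.34%): NOP56 by -0.24 (137, 128 and 138 CPM against 161, 158 and 157 CPM, adjusted p = 0.00141) and GNL3 by -0.17 (adjusted p = 0.0401). The GNL3 call was lost without GSK-LSD1 A or B or PRT220 + GSK-LSD1 A or B (adjusted p = 0.15, 0.146, 0.217 and 0.0562), and the NOP56 call when retained-intron transcripts were left out (-0.16, adjusted p = 0.24). MS023 + GSK-LSD1 against GSK-LSD1 lowered 1 gene, NIP7 (2.7%, background 7.5%), with 46.6, 45.1 and 42.1 CPM against 52.8, 51.5 and 51.9 CPM (log2 fold change -0.22, adjusted p = 0.0435), a call that was lost without any 1 of these 6 libraries (adjusted p = 0.0589 to 0.201). Higher calls by edgeR numbered 0 in both of these comparisons (background 7.01% and 3.37%), while DESeq2 called 0 and 1 and an unadjusted p below 0.05 was reached by 1 and 3 genes. Those backgrounds are of edgeR calls alone. With the term for the 8 libraries DKC1 was also called lower in both (-0.19 each, adjusted p = 0.022 and 0.0271), and BOP1 in the second (-0.25, adjusted p = 0.0192).

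The interaction asks whether a combination moved a gene by more or less than the sum of its single agents on the log2 scale. For PRT220 with GSK-LSD1 edgeR and DESeq2 called 0 of the 37 genes (background 0.439% lower and 0.102% higher), and at an unadjusted p below 0.05 DDX10, an RNA helicase, was the 1 gene higher and 0 were lower. The median interaction of the 37 genes was -0.01 and the range -0.16 to 0.20. For MS023 with GSK-LSD1 both tools called 0 of the 37 and edgeR 0 of all genes (0.0%). At an unadjusted p below 0.05, NIP7 and NOP58 were lower and 0 genes higher. The median was -0.08, and between -0.14 and -0.03 with a library left out. Values were negative in 31 of 37 genes, or 83.8%. Of all genes 52.9% were negative, and of the 114 other ribosome biogenesis genes 73.7%. A p that misses the threshold does not show that the responses added up.

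NOP2, a methyltransferase of 28S RNA, differed between the libraries that stand apart and the rest by -0.72 on the log2 scale, as given above, and its calls against DMSO changed when they were accounted for. It had 107, 109 and 63.6 CPM with PRT220 + GSK-LSD1, 70.2, 71.8 and 81.7 CPM with PRT220, and 81.8, 66.1 and 44.1 CPM with DMSO. The low value in PRT220 + GSK-LSD1 is library C and the low value in DMSO is library C, both among the 8 low-RRP9 libraries, as are all 3 PRT220 libraries. The low-RRP9 libraries of MS023 (46.7 and 43.7 CPM, against 71.3 CPM in library B) and MS023 + GSK-LSD1 (42.2 CPM, against 73.1 and 64.2 CPM) were the low ones too. As fitted on all libraries, NOP2 was not called with PRT220 + GSK-LSD1 (log2 fold change 0.54 ± 0.235, SE; adjusted p = 0.0658) or PRT220 (0.22 ± 0.235, SE; adjusted p = 0.554). With a term for the 8 libraries it was higher with PRT220 + GSK-LSD1 (0.54 ± 0.109, SE; adjusted p = 0.000343), with PRT220 (0.74 ± 0.124, SE; adjusted p = 0.000173) and in PRT220 + GSK-LSD1 against GSK-LSD1 (0.57 ± 0.112, SE; adjusted p = 0.00135; background for higher calls 7.99%). Within the 16 other libraries, where both groups have 2 libraries, PRT220 + GSK-LSD1 against DMSO gave 0.55 (adjusted p = 0.0108). Within the 8, where DMSO has 1 library, PRT220 against DMSO gave 0.74, the lone DMSO library being assumed to vary like the others.

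**Figure D4:**
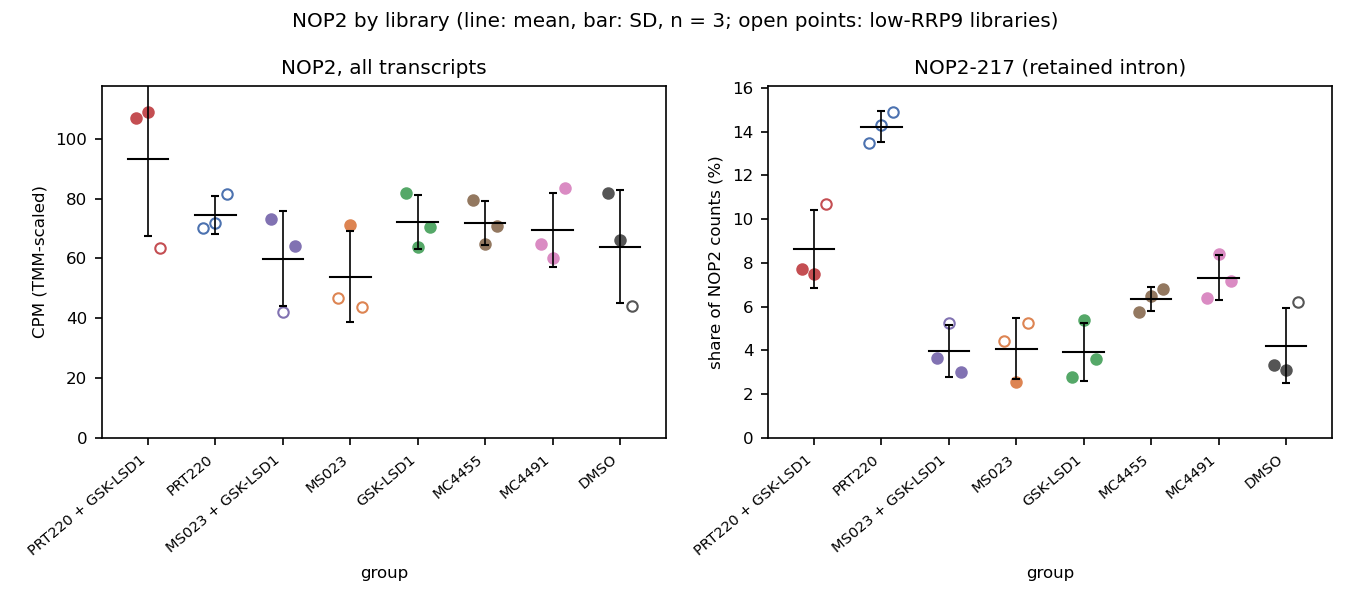
Left, NOP2 level in CPM (TMM-scaled) by library and group; right, percent of NOP2 counts assigned to NOP2-217, a transcript that keeps an intron, with mean and SD of 3 libraries and open points for the 8 low-RRP9 libraries. Within each group that has both kinds, the open points are the lowest in the left panel, and the PRT220 libraries at 13.5% to 14.9% are the highest in the right panel.

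The transcript table allowed a test of whether the transcripts of a gene changed their relative use (limma's diffSplice with a Simes p per gene, adjusted over 11428 genes). With PRT220, 11 of the 37 genes changed (background 16.3%), with PRT220 + GSK-LSD1 10 (19.6%), with GSK-LSD1 5 (5.17%) and with MS023 4 (4.39%), and tests added after seeing the data gave 9 with MS023 + GSK-LSD1 (13.4%), 7 with MC4455 (14.7%) and 8 with MC4491 (12.4%). POLR1C was called in all 7, but its transcript POLR1C-216, which drives this, is listed at 0 in DMSO B and takes 3.48% and 6.26% of POLR1C counts in DMSO A and C, so no fold is given. The transcripts named next were chosen after their values were seen.

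NPM1 shifted towards a short form. NPM1-203 ends in an alternative last exon and codes for 259 codons, without the C-terminal stretch that carries the nucleolar localisation signal of the full-length form, NPM1-204, with 294 codons. The following spliced sequences, read from the GRCh38 genome annotation by transcript and given 5' to 3', end the last exon they share in lower case and continue in capitals into the exon in which they differ. They show how little separates the forms at the join: after the shared exon, NPM1-203 has only a short run of codons and a stop.
NPM1-203: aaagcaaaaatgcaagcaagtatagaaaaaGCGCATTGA
NPM1-204: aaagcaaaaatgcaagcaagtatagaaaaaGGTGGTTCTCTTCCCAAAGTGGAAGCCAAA

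NPM1-203 took 11.1%, 12.1% and 11.4% of NPM1 counts with PRT220 + GSK-LSD1, 11.9%, 12.8% and 13.3% with PRT220, 11.3%, 9.78% and 10.1% with MC4455 and 10.7%, 9.35% and 10.3% with MC4491, against 7.53%, 7.75% and 7.51% with DMSO. Every library of these groups lay above every DMSO library. Its log2 usage changed by 0.65 (adjusted p = 7.9e-06), 0.80 (adjusted p = 1.48e-09), 0.49 (adjusted p = 0.00404) and 0.44 (adjusted p = 0.0122) in that order, with p-values adjusted over all transcripts tested. In the groups without PRT220 or a coded compound the shares were near or below those of DMSO: 7.01%, 7.38% and 7.39% with MS023 + GSK-LSD1, 7.56%, 7.30% and 6.93% with MS023 and 6.84%, 6.79% and 6.68% with GSK-LSD1, none of them called.

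GNL3 changed its transcripts in overlapping treatments. The main coding form, GNL3-202, with 549 codons and 15 exons, took 57.7%, 55.5% and 57.1% of GNL3 counts with PRT220 + GSK-LSD1, 57.5%, 47.6% and 50.2% with PRT220 and 57.5%, 52.4% and 54.5% with MC4455, against 67.7%, 61.7% and 63.6% with DMSO. Its log2 usage fell by 0.48 (adjusted p = 0.000647), by 0.74 (adjusted p = 1.19e-08) and by 0.53 (adjusted p = 0.000291). GNL3-210, annotated as a target of nonsense-mediated decay, uses a later end of exon 5 that adds 14 bases, and its annotated coding sequence has 138 codons. The added bases are in capitals below, between the end of exon 5 and the start of exon 6, and are absent from GNL3-202.
GNL3-202: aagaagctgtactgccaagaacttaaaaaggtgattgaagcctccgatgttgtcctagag
GNL3-210: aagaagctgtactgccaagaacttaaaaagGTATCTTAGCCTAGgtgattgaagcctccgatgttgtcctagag

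GNL3-210 took 2.99%, 2.77% and 2.49% of GNL3 counts with PRT220 + GSK-LSD1, 3.10%, 2.42% and 3.33% with PRT220 and 1.89%, 2.20% and 2.27% with MC4455, against 1.01%, 1.14% and 1.18% with DMSO. The groups did not overlap with DMSO, and log2 usage rose by 1.26 (adjusted p = 0.000274), 1.35 (adjusted p = 5.9e-05) and 0.89 (adjusted p = 0.0447, or 0.0658 with a term for the 8 libraries). GNL3-211 keeps an intron of 240 bases (GRCh38 chromosome 3, 52690705 to 52690944) that holds the snoRNA gene SNORD19B. It took 31.9%, 39.0% and 36.7% with PRT220 and 32%, 36.7% and 35.5% with MC4455, against 24.6%, 29.3% and 27.3% with DMSO (log2 usage 0.41 and 0.40, adjusted p = 0.0146 and 0.0297). None of these 3 GNL3 transcripts was called with GSK-LSD1, MS023, MS023 + GSK-LSD1 or MC4491.

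**Figure D5:**
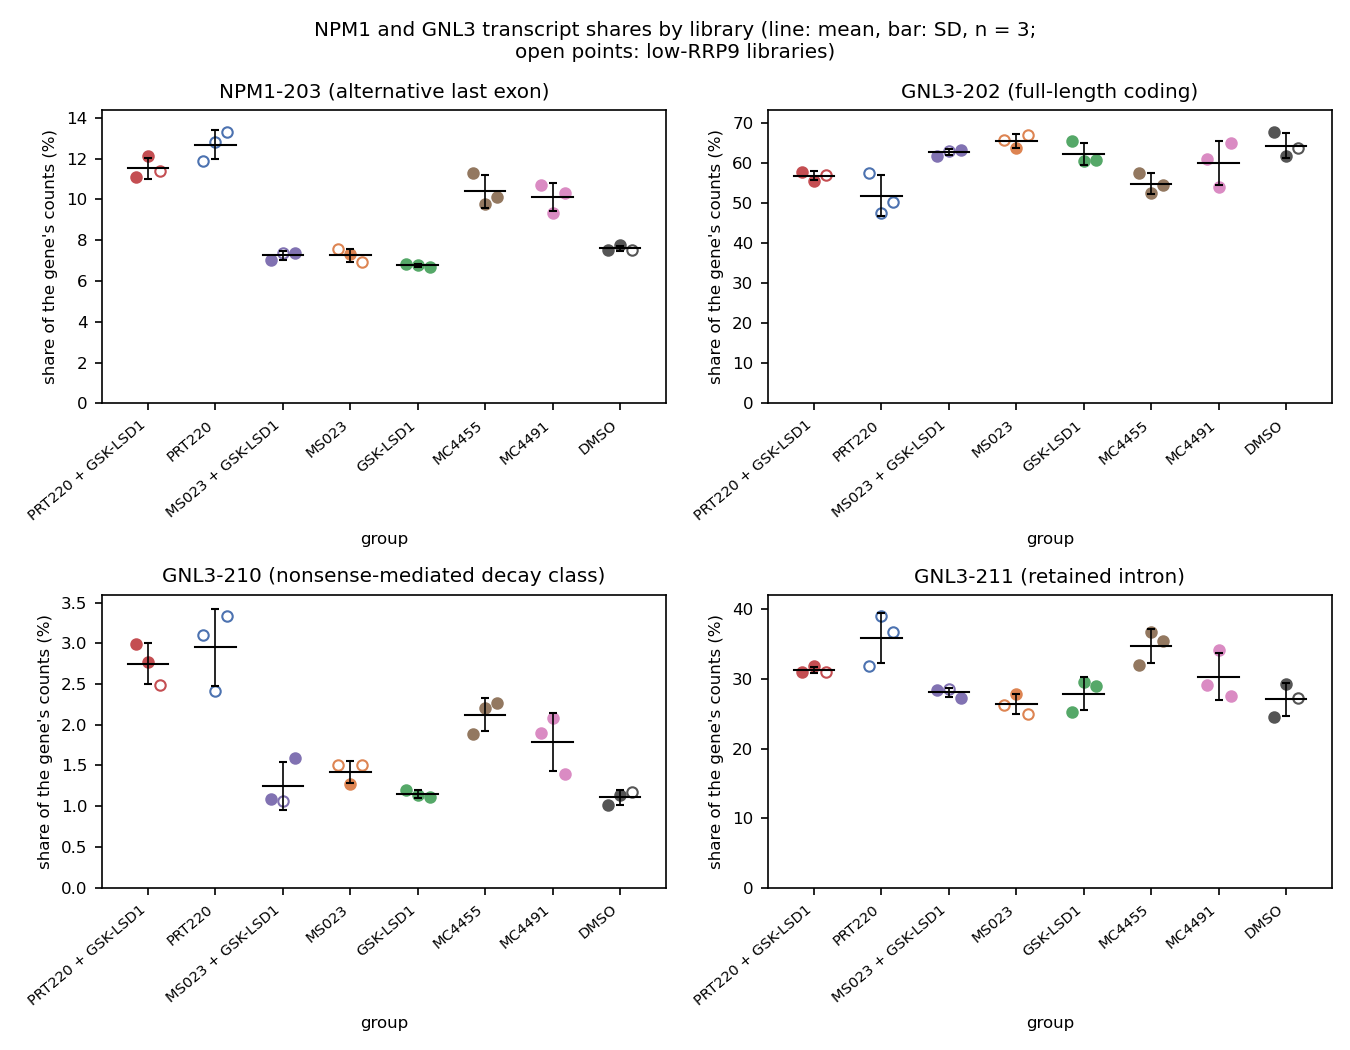
Percent of the gene's counts assigned to NPM1-203, GNL3-202, GNL3-210 and GNL3-211 (vertical axes from 0) in each of 24 libraries by group, with mean and SD of 3 libraries; open points are the 8 low-RRP9 libraries. NPM1-203 lies at 9.35% to 13.3% in the PRT220, PRT220 + GSK-LSD1, MC4455 and MC4491 libraries and at 6.68% to 7.75% in all others.

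NOP2 transcripts changed as well. NOP2-217 keeps an intron of 120 bases on GRCh38 chromosome 12, at 6560327 to 6560446 on the minus strand, shown because this share separated the PRT220 libraries from all others. The intron is in capitals between 20 exon bases on each side.
NOP2-217: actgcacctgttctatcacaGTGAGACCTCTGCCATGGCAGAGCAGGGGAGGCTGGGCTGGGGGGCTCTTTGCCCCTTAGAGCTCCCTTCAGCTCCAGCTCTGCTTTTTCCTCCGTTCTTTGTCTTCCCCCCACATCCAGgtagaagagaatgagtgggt

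NOP2-217 took 7.73%, 7.5% and 10.7% of NOP2 counts with PRT220 + GSK-LSD1 and 13.5%, 14.3% and 14.9% with PRT220, against 3.33%, 3.10% and 6.19% with DMSO. The highest DMSO share is library C, 1 of the 8 low-RRP9 libraries. The log2 usage change with PRT220 was 2.04 (adjusted p = 0.02), and 1.58 with a term for the 8 libraries, which did not pass (adjusted p = 0.0757). With PRT220 + GSK-LSD1 it was 1.18 and not called (adjusted p = 0.339). With PRT220, NOP56-216, a transcript of NOP56 annotated as processed and without a coding sequence, took 9.49%, 4.83% and 7.37% of the NOP56 counts in paired transcripts, against 15.8%, 13.4% and 16.8% with DMSO (log2 usage -1.32, adjusted p = 8.09e-05).

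The other genes of the pathway, 114 RNA polymerase I, snoRNP, small subunit and 60S genes, were tested the same way. PRT220 + GSK-LSD1 lowered 32, or 28.1% (background 22.1%), and raised 12, or 10.5% (24.4%), with a median log2 fold change of -0.07. MS023 + GSK-LSD1 lowered 43, or 37.7% (23.3%), and raised 4, or 3.51% (25.1%). GSK-LSD1 lowered 22, or 19.3% (15.0%), and raised 7, or 6.14% (17.6%). The shares lowered by PRT220 + GSK-LSD1 and by GSK-LSD1 were near the background. MC4455 lowered 47, or 41.2% (19.2%), and raised 2, or 1.75% (18.5%), and MC4491 lowered 38, or 33.3% (15.2%), and raised 3, or 2.63% (15.5%). PRT220 alone lowered 13, or 11.4% (11.1%), and raised 20, or 17.5% (13.8%), both near the background. The genes it raised most were UTP14A, a processome protein (log2 fold change 0.43, adjusted p = 0.00138), DDX51, a helicase of 28S RNA maturation (0.42), and SDAD1, a 60S export factor (0.25, adjusted p = 0.00342). The largest falls called with PRT220 were those of EMG1, a pseudouridine methyltransferase of 18S RNA (-1.19, adjusted p = 0.0287), ZNHIT3, an assembly factor of box C/D snoRNPs (-0.49), and FTSJ3, a methyltransferase of precursor RNA (-0.41, adjusted p = 0.000173). EMG1 was at 19.2, 19.8 and 19.9 CPM with PRT220 against 58.8, 53.9 and 21.2 CPM with DMSO, and DMSO C is the low-RRP9 library. The PRT220 libraries, all low-RRP9 too, lay near DMSO C and far below the other DMSO libraries. The part of the library split in these 3 falls is not given here. POLR1F, a polymerase I subunit, and KRR1, a small subunit factor, fell most with PRT220 + GSK-LSD1 (-0.73 and -0.57) and with GSK-LSD1 (-0.58 and -0.44). POLR1F had 34.2, 34.4 and 36.2 CPM with PRT220 + GSK-LSD1 and 37.6, 40.1 and 38.7 CPM with GSK-LSD1, against 61.7, 57.9 and 54.6 CPM with DMSO.

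MYC, the known activator of such genes, was lower than DMSO in all 3 groups that received GSK-LSD1. It had 184, 227 and 229 CPM with PRT220 + GSK-LSD1, 252, 263 and 241 CPM with MS023 + GSK-LSD1 and 206, 206 and 219 CPM with GSK-LSD1, against 312, 322 and 301 CPM with DMSO. These are log2 fold changes of -0.55, -0.31 and -0.57 (adjusted p = 7.41e-07, 0.000639 and 7.2e-07). With MC4455 MYC had 321, 295 and 292 CPM (log2 fold change -0.04, adjusted p = 0.642), and with MC4491 328, 310 and 348 CPM (0.08, adjusted p = 0.397). MYC was higher with MS023 (385, 379 and 365 CPM, log2 fold change 0.27, adjusted p = 0.0309) and was not called with PRT220.

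Averaged over the 37 genes, each scaled to its own mean and SD, libraries of a group spread widely. The highest mean was that of DMSO A, at 1.49, with DMSO B at 0.44 and DMSO C at 0.66, and the lowest were MC4455 B at -1.30 and MC4491 A at -1.23, while MC4491 C stood at 0.06. The genes outside the list with the most similar profile over the 24 libraries were EPRS1 (Pearson r = 0.976), CCT5 (0.965), HSPA8 (0.956), HSPE1 (0.955) and CLUH (0.955), a description over libraries that share their sequencing and their groups. They encode a transfer RNA synthetase, a chaperonin subunit, heat shock proteins and a protein that binds messenger RNAs of mitochondrial proteins.

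The letters CACGTG, the E-box that MYC with its partner MAX is known to bind, were searched in the 250 bases before each annotated start (RefSeq, GRCh38.p14; the motif reads the same on both strands). Of 42 windows of 34 matched genes, 6 held it, or 14.3%, against 13.1% of the windows of the other pathway genes and 6.34% of 35116 windows of all genes. The 30 bases around it are shown for the 3 of these genes that were called in the most comparisons, with the motif in capitals, on the strand of the gene. They come from chr4:4290068-4290097 for LYAR, chr16:69132619-69132648 for UTP4 and chr1:43172790-43172819 for EBNA1BP2, with the motif starting 64, 16 and 237 bases before the start.
LYAR: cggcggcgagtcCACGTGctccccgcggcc
UTP4: tgagagcgcgcgcgCACGTGgggccggggc
EBNA1BP2: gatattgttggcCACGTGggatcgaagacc
A match describes letters in a window and is not a binding site.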

How the data were processed

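Per the labels, poly(A)-selected RNA of MV4-11 cells was sequenced in 24 libraries, 3 in each of 8 groups. The authors deposited a gene table and a transcript table of estimated counts, not scaled between libraries, a unit read from the values. The submitters' processing notes name GRCh38 and, with no role or order, STAR 2.7.3a, DESeq2 1.28.1, Salmon 1.2.1 and R 4.0.0. The annotation release and the counting settings are not given in the sources used here. The libraries were unstranded per the labels, so reads of overlapping genes cannot be told apart.

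Estimated counts were rounded and fitted with edgeR 4.0.16 in R 4.3.3 (TMM scaling, filterByExpr, 1 coefficient per group, all 24 libraries, Benjamini-Hochberg over 16640 genes). SE is the log2 fold change divided by the square root of F. Transcript usage used limma 3.58.1 (voom, diffSplice), with 167049 of 178398 transcripts, 96.6% to 96.8% of counts, paired with GENCODE 29. The scripts were tested on simulated data. No 2 libraries of a group were identical.

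The alternatives were DESeq2 1.42.0, other scalings, no filter, a replicate block, a term for the 8 low-RRP9 libraries (threshold 5 CPM), each kind of library alone, the compared groups alone, each library left out, and retained-intron transcripts left out. All 38 genes could be named. Libraries are given one by one for NPM1, NCL and FBL and for up to 3 called genes per direction and comparison with the largest change, and for some further genes chosen after their values were seen. Of the other pathway genes, up to 3 called per direction are named in PRT220, GSK-LSD1 and their combination, and MYC and RRP9 always. The genes, lists and rules were chosen with earlier results of these data known.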

Additional observations from a re-analysis of the deposited data

How the results depend on the processing

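Counts of the 37 genes called lower than DMSO stayed within 1.5 times under every alternative in PRT220, MS023, MC4455 and MC4491. With GSK-LSD1 the count of 15 lower became 23 with DESeq2 and with each of 3 other scalings in edgeR (DESeq2 size factors, upper quartile, library totals). Within the 8 low-RRP9 libraries alone, 9 genes were lower with PRT220 + GSK-LSD1, 9 with MS023 + GSK-LSD1, 8 in PRT220 + GSK-LSD1 against PRT220 and 17 in MS023 + GSK-LSD1 against MS023, where fewer libraries enter and an arm has 1 library, assumed to vary like the others. Within the other 16 the last count was 10. With the term for the 8 libraries and the replicate block together, PRT220 + GSK-LSD1 against PRT220 had 12 lower. PRT220 + GSK-LSD1 against GSK-LSD1, with 2 lower, had 1 with library totals, no filter, the replicate block, the 16 libraries or no retained-intron transcripts, and 4 with the compared groups alone. MS023 + GSK-LSD1 against GSK-LSD1, with 1 lower, had 0 with DESeq2 size factors, upper quartile, library totals, no filter, the replicate block or no retained-intron transcripts. It had 2 with DESeq2, the 16 libraries or the compared groups alone, 3 with the term and 4 with the term and the block. Higher calls, 0 at first, became 1 with PRT220 under the term, the term with the block and the 8 libraries. With PRT220 + GSK-LSD1 they became 2 under the term with or without the block and 1 within the 16 or the 8 libraries, and with MS023 + GSK-LSD1 1 under the term with or without the block. They became 1 in PRT220 + GSK-LSD1 against PRT220 with the compared groups alone, and 1 in PRT220 + GSK-LSD1 against GSK-LSD1 under the term, the term with the block and the 16 libraries. In MS023 + GSK-LSD1 against GSK-LSD1 they became 1 with DESeq2 and 2 with upper quartile or library totals. Transcript usage calls with an F test in place of Simes were 2 for GSK-LSD1 (background 1.99%), 2 for MS023 (1.41%), 5 for MS023 + GSK-LSD1 (9.7%) and 5 for MC4491 (9.47%). NOP2 with GSK-LSD1 changed sign, to -0.02 with the term, -0.03 with the term and the block, -0.03 within the 16 libraries and, with a library left out, from -0.05 (without DMSO C) to 0.39 (without DMSO A). The cause of these changes was not tested. Apart from those of the F test, no share of all genes called is set beside the counts in this section.

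With each library left out in turn, the lower counts ranged from 2 to 3 with PRT220, 8 to 25 with GSK-LSD1, 21 to 28 with PRT220 + GSK-LSD1, 0 to 0 with MS023, 18 to 26 with MS023 + GSK-LSD1, 21 to 29 with MC4455 and 18 to 28 with MC4491. They ranged from 16 to 20 in PRT220 + GSK-LSD1 against PRT220, 1 to 4 against GSK-LSD1, 20 to 32 in MS023 + GSK-LSD1 against MS023 and 0 to 1 against GSK-LSD1. The 2 higher calls with PRT220 + GSK-LSD1 came without DMSO A, and every other higher count was 0 or 1. Of 973 alternative values of single genes, 867 kept their direction and side of the threshold, 93 no longer passed, 9 newly passed and 4 changed sign. Same-lettered libraries showed little common deviation from their group means (84 pairs, r from -0.194 to 0.154, 5 over 0.1). No pairing by letter was seen, but the check could miss a weak one. The replicate block gave 3 lower with PRT220, 14 with GSK-LSD1, 24 with PRT220 + GSK-LSD1, 25 with MS023 + GSK-LSD1, 27 with MC4455 and 25 with MC4491. With it the adjusted p of NCL was 0.0569 with MS023 + GSK-LSD1. The retained-intron alternative and 3 of the usage tests were chosen after seeing the data. With 3 libraries a group, small changes of genes with few reads may go uncalled.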
